A study of Mus musculus with 6 samples.

Results

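The collagen gene family was examined in EpRas cells that had gone through an epithelial-mesenchymal transition (EMT). Its members were taken by symbol, as every gene whose annotated symbol is Col followed by a chain type, the letter a and a chain number, on probe sets with 1 gene symbol. This gave 42 of 18820 genes that have an unshared probe set, on 46 of the 35556 probe sets of the array. Both *Col7a1* and *Col9a3* are annotated only to probe sets that carry a second gene symbol, so neither is a member. Of several probe sets for a gene, that of highest average over the 6 arrays was read. EpRas is a mouse mammary tumor line, of BALB/c background, made from EpH4 epithelial cells by stable overexpression of the Ha-Ras oncogene, which the control cells therefore carry too. Control cells (n = 3) were left untreated, and long-term EMT cells (n = 3) received 2 ng/ml of TGF-β1 for 14 days. Per the series' description RNA came from triplicate wells of this 1 line. Whether the wells were treated independently over the 14 days is not stated, so that the spread behind the p-values may be technical. The array type was Affymetrix MoGene-1_1-st-v1, with 1 array a sample, and all values are log2 values made by the authors with the Robust Multi-array Average (RMA).

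Collagens are matrix proteins of 3 chains that wind into a triple helix. Fibrillar collagens build the fibrils of connective tissue, type IV collagens form the network of basement membranes under epithelia, and FACIT collagens sit on the surface of fibrils. Other types form beaded filaments (type VI), short-chain networks, membrane-spanning chains or proteins of vessel and basement membrane zones. TGF-β is known as an inducer of fibrillar collagens in fibroblasts, and epithelial cells rest on basement membrane collagens, so the family was compared by class between epithelial control and long-term EMT cells.

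The comparison was made on all probe sets with limma, with Benjamini-Hochberg adjustment, and a gene passed at an adjusted p under 0.05 with a fold above 1.5. The words rose and fell are used only of genes that passed. The background level, 4.48, is the 95th percentile over 1006 probe sets of olfactory receptors, genes that mammary cells hardly use. Of the epithelial markers *Cdh1*, *Epcam*, *Krt8*, *Krt18*, *Krt7*, *Esrp1* and *Ocln*, 7 were above this level in control cells, and 5 fell in long-term EMT cells while the keratin genes *Krt8* and *Krt18* did not pass. The summed level of these 7 markers on the log2 scale was 14.18 to 14.48 in control and 13.76 to 13.83 in long-term EMT cells. The highest of them, *Krt8* and *Krt18*, carry most of this sum. The 5 that fell had log2 differences from -5.38 (*Esrp1*) to -2.11 (*Krt7*). Of 9 fibroblast markers, which hold 3 members of the family (*Pdgfra*, *Pdgfrb*, *Thy1*, *Dcn*, *Lum*, *Col1a1*, *Col1a2*, *Col3a1* and *Fbln1*), 0 passed by limma. An unadjusted limma p under 0.05 was found for 3 of them, beside 13.5% of all probe sets. These were *Col1a1*, with a log2 difference of 0.62, and *Pdgfra* and *Pdgfrb*, with -0.95 and -1.31. The summed level of the 9 markers was 10.41 to 10.92 in control and 9.65 to 10.02 in long-term EMT cells. *Pdgfrb*, the highest of them, weighs most in this sum, and the median log2 difference of the 9 was 0.01. *Lum* lay below the background level. What part the marker differences have in the collagen values was not tested. Control replicate 1 stood apart, with a correlation across probe sets of 0.984 to 0.987 with the other controls, against 0.995 between these. In bulk RNA, fewer cells that express a gene and less RNA per cell cannot be told apart.

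Of the 42 collagen genes, 1 rose (*Col5a3*), 2 fell (*Col6a1* and *Col4a5*) and 39 did not pass in long-term EMT cells. This is 7.14% of the members, beside 1.92% of all probe sets (0.993% higher and 0.928% lower) and 2.96% of all genes read in the same way. The same 3 members had an adjusted p under 0.05 when no fold was asked for (2.21% of all probe sets), and 5 members had a fold above 1.5 whatever their p (5.87%). At an unadjusted limma p under 0.05 with no fold threshold there were 8 members (13.5% of all probe sets). By the methods' t-test, an unadjusted p of 0.05 or less with a fold above 1.5, 5 members were called, 3 higher and 2 lower, beside 3.73% of all probe sets (1.79% higher and 1.93% lower), and none was called after Benjamini-Hochberg adjustment. The median log2 difference over the 42 genes, long-term EMT minus control, was 0.05, and over all probe sets it was 0.02. The groups did not overlap for 9 members, or 21.4%, beside 19.2% of all probe sets (10.5% with long-term EMT cells higher and 8.68% lower). Above the controls in this way were *Col1a1*, *Col4a3*, *Col5a3*, *Col9a2*, *Col16a1* and *Col18a1*, and below them *Col4a5*, *Col6a1* and *Col6a2*. For 33 of the 42 genes the 95% interval of the difference lay within a 1.5-fold change either way (70.9% of all probe sets), so a larger change on the RMA scale is outside the interval of each of these. The 6 genes that did not pass and whose interval reached past 1.5-fold were *Col1a1*, *Col6a2*, *Col12a1*, *Col16a1*, *Col18a1* and *Col27a1*. Values were low for most of the family. *Col5a2*, *Col6a4* and *Col28a1* lay at or below the background level in both groups, 39 genes lay above it, and 26 lay in at least 1 group above 5.09, the 99th percentile of the olfactory receptor probe sets. Near background a difference on the RMA scale understates a change, and values of different probe sets do not rank genes by abundance.

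**Figure D1:**
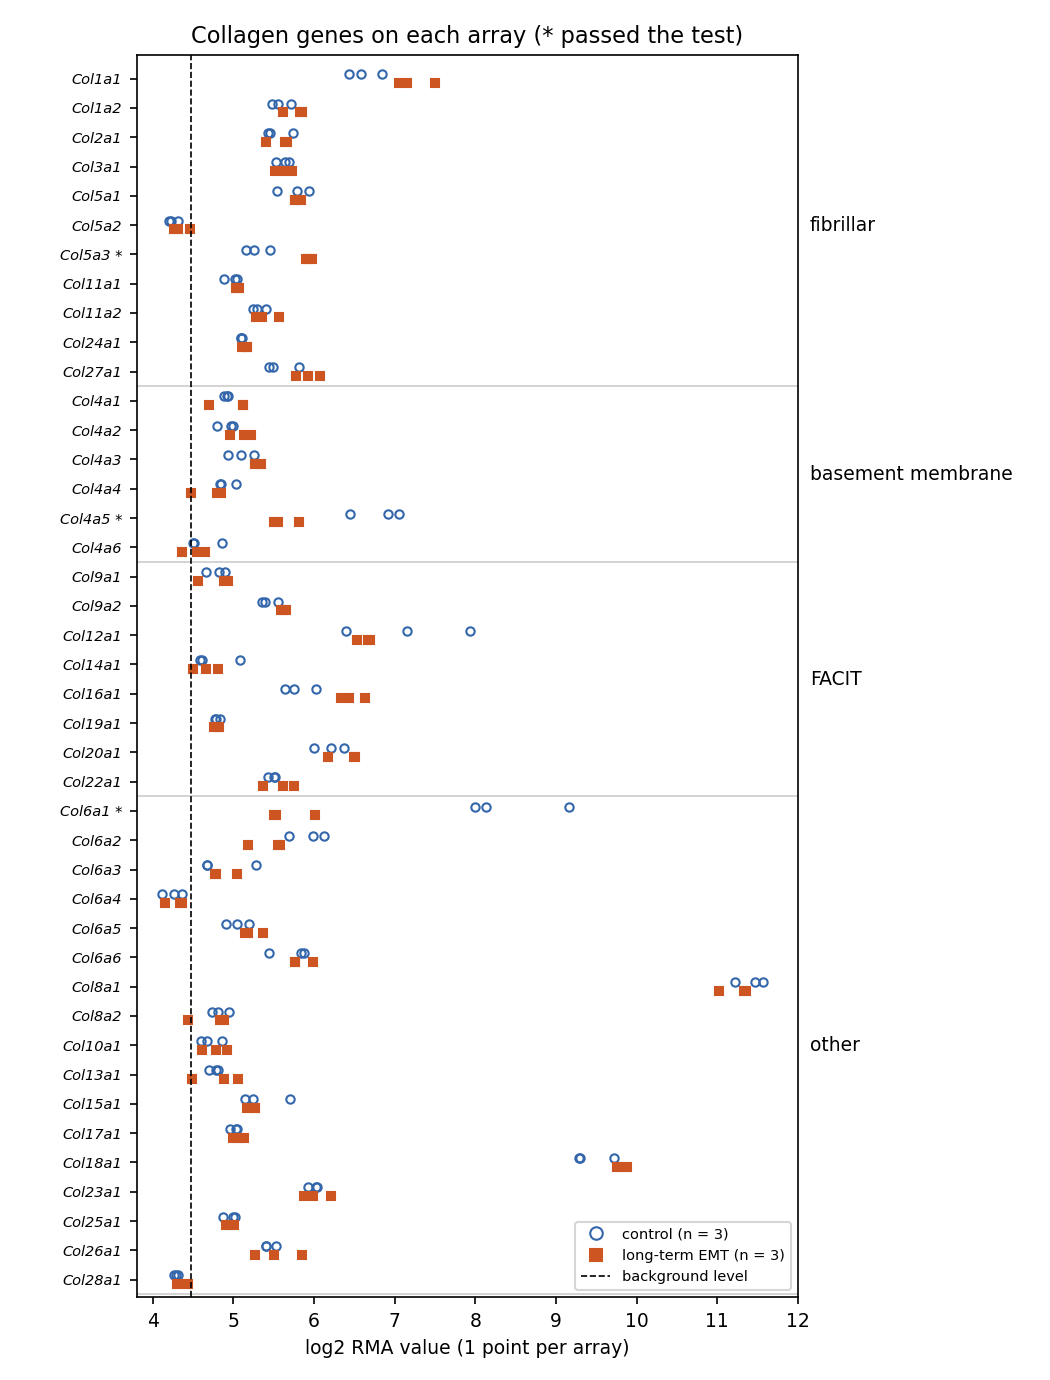
Log2 RMA values of the 42 collagen genes (rows, by class) on each array, with control arrays as open circles (n = 3), long-term EMT arrays as filled squares (n = 3), the background level of 4.48 as a dashed line and a star on the genes that passed. Most genes lie within 2 log2 units of the background level in both groups, and the groups are clearly apart for *Col6a1* and *Col4a5*.

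**Figure D2:**
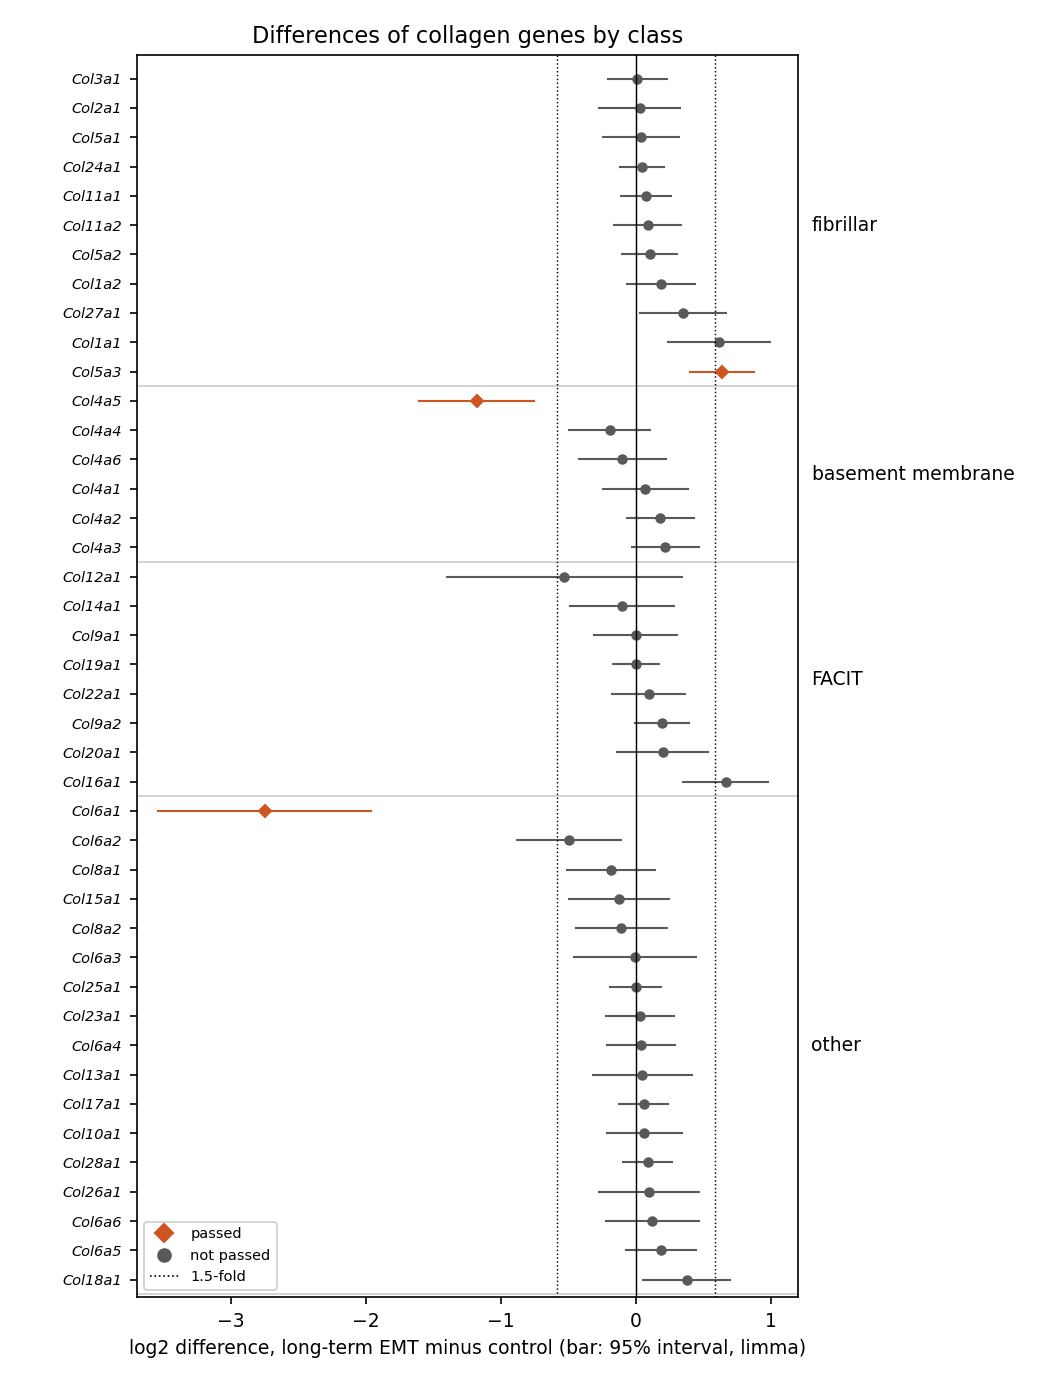
Log2 differences, long-term EMT minus control, of the 42 collagen genes by class, with 95% intervals from limma (bars) and a 1.5-fold change either way (dotted lines). *Col6a1* (-2.75) and *Col4a5* (-1.18) lie to the left and *Col5a3* (0.64) to the right as diamonds, and the 39 genes that did not pass are circles between -0.53 and 0.66.

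The bases just upstream of the start sites of the 3 genes that passed are shown because they can be set against the TGF-β response. Smad proteins, which carry the TGF-β signal, bind CAGACA, and Sp1, which drives many collagen promoters, binds GGGCGG. AP-1, a target of Ras signaling, binds TGANTCA, and Zeb repressors bind the E-box CACCTG. The 4 motifs were searched on both strands in the 250 bases before the start, taken from RefSeq on build GRCm38.p6, where 34 of the 42 genes have a window and some have more than 1. Matches are in capitals, given 5′ to 3′ along the strand of the gene. None of the matches shown shares a base with another.
Col6a1, chr10:76726045-76726294, minus strand: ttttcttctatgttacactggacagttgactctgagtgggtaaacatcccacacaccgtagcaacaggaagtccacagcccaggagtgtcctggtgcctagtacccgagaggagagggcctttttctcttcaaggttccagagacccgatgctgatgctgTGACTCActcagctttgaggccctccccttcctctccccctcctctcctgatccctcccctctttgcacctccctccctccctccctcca
Col4a5, chrX:141475169-141475418, plus strand: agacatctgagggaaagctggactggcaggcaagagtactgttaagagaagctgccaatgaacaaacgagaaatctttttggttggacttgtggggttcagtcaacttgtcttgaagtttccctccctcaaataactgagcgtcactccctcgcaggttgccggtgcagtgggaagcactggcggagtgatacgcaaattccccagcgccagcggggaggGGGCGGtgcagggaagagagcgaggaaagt
Col5a3, chr9:20815068-20815317, minus strand: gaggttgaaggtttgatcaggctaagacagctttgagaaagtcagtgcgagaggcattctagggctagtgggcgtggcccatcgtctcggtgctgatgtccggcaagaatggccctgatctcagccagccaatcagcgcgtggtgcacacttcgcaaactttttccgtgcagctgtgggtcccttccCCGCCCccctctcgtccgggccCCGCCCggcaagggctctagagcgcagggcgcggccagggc

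*Col6a1*, which fell, has 1 TGANTCA match that begins 90 bases before the start and no GGGCGG, and it is the only 1 of the 37 collagen windows with TGANTCA (2.7%, beside 6.75% of all 32851 windows). *Col4a5*, which also fell, has 1 GGGCGG match 30 bases before the start, and *Col5a3*, which rose, has 2 such matches on the other strand, 63 and 41 bases before it. GGGCGG was found in 21 of the 37 collagen windows (56.8%) and in 32.7% of all windows. CAGACA was found in 8 collagen windows (21.6%) beside 17.1% of all, and CACCTG in 4 (10.8%) beside 17.2%, and none of the 3 windows shown holds either. A match is a run of letters and not a binding site, and a window without one says nothing of the factor.

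Type VI collagen assembles from the α1, α2 and α3 chains into beaded filaments that link cells to the surrounding matrix. The largest difference by value in the family was that of its α1 chain gene, *Col6a1*. It was measured at 9.16, 8.00 and 8.13 in control replicates 1 to 3 and at 5.50, 5.53 and 6.01 in long-term EMT replicates 1 to 3. All long-term EMT arrays lay at least 1.99 log2 units below the lowest control array, and *Col6a1* remained above the background level after the fall. The mean went from 8.43 ± 0.64 (SD, n = 3) to 5.68 ± 0.29 (SD, n = 3), a 6.73-fold fall (log2 difference -2.75, standard error 0.33, adjusted p = 0.0142 from limma). Control replicate 1 held the highest value, and without it the log2 difference was -2.39, with adjusted p = 0.00385. *Col6a2*, the α2 chain gene and direct neighbour of *Col6a1* on chromosome 10, gave 6.12, 5.99 and 5.69 in control and 5.18, 5.55 and 5.58 in long-term EMT cells. Its groups did not overlap either, but its log2 difference of -0.50 (95% interval -0.88 to -0.11, adjusted p = 0.233 from limma) did not pass. *Col6a3*, the α3 chain gene, stayed near the background level, at 5.28, 4.68 and 4.67 in control and 4.77, 5.05 and 4.79 in long-term EMT cells, with a log2 difference of -0.01. The genes of the further chains that can take the place of α3 lay between 4.11 and 5.99, and their log2 differences were 0.04 for *Col6a4*, 0.18 for *Col6a5* and 0.12 for *Col6a6*. The other probe sets of *Col6a5* and *Col6a6* lay below the background level, with log2 differences of 0.04 and 0.07. Thus 1 of 6 type VI genes passed, beside 1.92% of all probe sets and 2.96% of all genes. The test of whether *Col6a1* moved differently from its partners was not made.

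Type IV collagen, the network former of basement membranes, is built from 6 chains, of which α5 joins with α3 and α4 or with α6. *Col4a5*, the α5 chain gene, was measured at 7.05, 6.92 and 6.45 in control and at 5.51, 5.82 and 5.55 in long-term EMT replicates 1 to 3. Every long-term EMT array lay below every control array, by 0.63 log2 units or more. The mean went from 6.81 ± 0.32 (SD, n = 3) to 5.63 ± 0.17 (SD, n = 3), a 2.27-fold fall (log2 difference -1.18, standard error 0.18, adjusted p = 0.0298 from limma). *Col4a6*, its direct neighbour on the X chromosome, gave 4.86, 4.50 and 4.51 in control and 4.36, 4.55 and 4.65 in long-term EMT cells. These values lay around the background level and the groups overlapped (log2 difference -0.10, 95% interval -0.43 to 0.22). The partner genes *Col4a3* and *Col4a4* had log2 differences of opposite sign, 0.22 and -0.19, neither of which passed (adjusted p = 0.443 and 0.603 from limma). *Col4a1* and *Col4a2* encode the chains found in nearly all basement membranes and lie head to head on chromosome 8. Their windows of 250 bases before the start (RefSeq, build GRCm38.p6) do not overlap. A stretch of 78 bases is shared only when the windows are extended past both starts. *Col4a1* went from 4.93, 4.92 and 4.88 to 4.70, 5.12 and 5.12, and *Col4a2* from 4.80, 4.97 and 5.00 to 4.96, 5.22 and 5.13. Both stayed within 1 log2 unit of the background level, with 95% intervals of -0.24 to 0.38 and -0.07 to 0.43. In all, 1 of 6 basement membrane genes fell and 5 did not pass, where 0.928% of all probe sets fell, and the median log2 difference of the class was -0.02.

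Among the 11 fibrillar genes, *Col5a3* rose. It encodes the α3 chain of type V collagen, a minor fibrillar collagen that joins type I fibrils. Control replicates gave 5.46, 5.16 and 5.26 and long-term EMT replicates 5.91, 5.90 and 5.98, so that the groups lay 0.44 log2 units apart at their nearest. The mean went from 5.29 ± 0.15 (SD, n = 3) to 5.93 ± 0.04 (SD, n = 3), a 1.55-fold rise that only just exceeded the fold threshold (log2 difference 0.64, standard error 0.10, adjusted p = 0.0327 from limma). With a trended and robust variance prior its adjusted p was 0.057. The α1 and α2 chain genes of type V did not pass. *Col5a1* had a log2 difference of 0.04 on its main and 0.21 on its other probe set, and *Col5a2* stayed below the background level, at 4.25 and 4.35 on average.

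Type I collagen, the main collagen of connective tissue, is made of the products of *Col1a1* and *Col1a2*. *Col1a1* gave 6.84, 6.44 and 6.58 in control and 7.50, 7.15 and 7.06 in long-term EMT cells. The groups did not overlap, and the log2 difference of 0.62 (95% interval 0.24 to 0.99, unadjusted p = 0.00676, adjusted p = 0.137 from limma) did not pass after adjustment. *Col1a2* gave 5.48, 5.55 and 5.71 in control and 5.62, 5.85 and 5.83 in long-term EMT cells, with overlapping groups and a log2 difference of 0.19 (adjusted p = 0.531). The type III gene *Col3a1*, a neighbour of *Col5a2* on chromosome 1, had a log2 difference of 0.01 (95% interval -0.21 to 0.23). *Col27a1* had one of 0.35 (adjusted p = 0.327). The cartilage genes *Col2a1*, *Col11a1* and *Col11a2* and the type XXIV gene *Col24a1* lay between 4.88 and 5.74 on all arrays, with differences of 0.03 to 0.09. By value all 11 fibrillar genes were above 0, with a median of 0.09, beside 19687 of all 35556 probe sets. After a further quantile normalization 10 of 11 were so, and 9 of 11 with equal array medians. It was also 9 of 11 without control replicate 2, control replicate 3 or long-term EMT replicate 2. Only *Col5a3* passed, and over all probe sets the higher calls were 0.993%.

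Of the 8 FACIT genes none passed by limma (1.92% of all probe sets did), and 1 had an unadjusted p under 0.05 (13.5% of all probe sets). This was *Col16a1*, the type XVI chain gene, at 6.02, 5.75 and 5.64 in control and 6.63, 6.43 and 6.34 in long-term EMT cells. All its long-term EMT arrays lay above its control arrays, by 0.32 log2 units at the nearest. The log2 difference of 0.66 (standard error 0.13) had an adjusted p of 0.0681 from limma, which became 0.03 without control replicate 1 and was 0.15 to 0.225 when another array was left out. *Col12a1*, whose type XII collagen decorates type I fibrils, differed most between control samples, at 6.40, 7.15 and 7.93, while the long-term EMT samples gave 6.53, 6.69 and 6.67. Its log2 difference of -0.53 came with a 95% interval from -1.40 to 0.34 (adjusted p = 0.63), and it was -0.91 without control replicate 1 and -0.15 without control replicate 3. *Col20a1* had log2 differences of 0.20 and 0.17 on its 2 probe sets, and *Col9a2*, of cartilage type IX collagen, had one of 0.19 (adjusted p = 0.40). The remaining FACIT genes (*Col9a1*, *Col14a1*, *Col19a1* and *Col22a1*) lay between 4.50 and 5.75, and the FACIT median difference was 0.05.

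The remaining genes lie outside these classes. *Col8a1*, of the short-chain type VIII collagen, gave 11.56, 11.47 and 11.22 in control and 11.35, 11.33 and 11.02 in long-term EMT cells. Its groups overlapped, with a log2 difference of -0.18 and a 95% interval of -0.51 to 0.14. *Col18a1* encodes type XVIII collagen of basement membrane zones, the source of endostatin, and gave 9.72, 9.30 and 9.29 in control against 9.76, 9.88 and 9.80 in long-term EMT cells. Here the groups came within 0.04 log2 units of each other without overlap, and the log2 difference of 0.38 (95% interval 0.05 to 0.70, adjusted p = 0.288 from limma) did not pass. Without control replicate 1 it was 0.52 with adjusted p = 0.0372, still under a fold of 1.5. The other multiplexin, *Col15a1*, had a log2 difference of -0.13. Of the 4 genes of membrane-spanning collagens, *Col17a1*, the hemidesmosome collagen of epithelia, lay at 5.03, 5.04 and 4.96 in control and 5.00, 5.07 and 5.13 in long-term EMT cells. *Col13a1*, *Col23a1* and *Col25a1* had log2 differences of 0.05, 0.03 and -0.0033. *Col8a2*, *Col10a1*, *Col26a1* and *Col28a1* differed by -0.11 to 0.10. Of the 17 genes outside the fibrillar, basement membrane and FACIT classes, 1 fell (*Col6a1*) and 16 did not pass, beside the same 0.928%, with a median of 0.04.

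The calls of single collagens depended on single arrays. With each array removed in turn, *Col6a1* passed in 3 of 6 fits, *Col4a5* in 2, *Col5a3* in 1 and *Col16a1* in 1, and all the passing fits left out a control array. Without long-term EMT replicate 1, 2 or 3, no collagen passed, and the share of all probe sets that passed went to 0.877%, 0.577% and 0.697%. Without control replicate 1, 2 or 3 this share was 2.68%, 0.63% and 1.57%, so the number of calls over the whole array changed as well. The log2 differences moved less than the calls, between -2.96 and -2.39 for *Col6a1*, between -1.36 and -1.06 for *Col4a5* and between 0.57 and 0.72 for *Col5a3*.

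**Figure D3:**
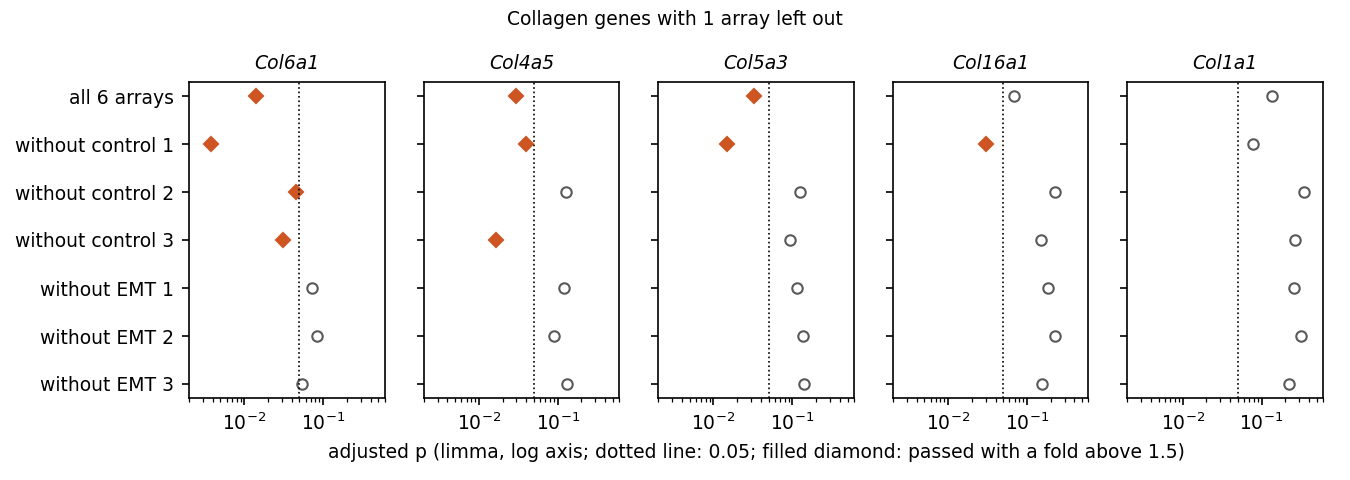
Adjusted p from limma (log axis) for 5 collagen genes with all 6 arrays and with each array left out, with 0.05 as a dotted line and fits that passed as filled diamonds. *Col6a1* passed in 3, *Col4a5* in 2 and *Col5a3* and *Col16a1* each in 1 of the 6 fits with an array left out, and *Col1a1* in none.

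Collagen chains are hydroxylated, folded, exported, trimmed, cross-linked, bound and degraded by other proteins, and the genes of these steps were read in the same fit. The counts of each list stand beside the 0.993% higher and 0.928% lower of all probe sets and the 2.96% of all genes called either way. Of 7 measured genes of procollagen trimming, 2 rose and 1 fell (42.9% of the list). *Adamts14*, a protease that removes the N-propeptide of fibrillar procollagens, went from 8.34, 8.26 and 8.50 to 10.58, 10.56 and 10.41 (log2 difference 2.15, standard error 0.10, adjusted p = 0.00104 from limma), with the groups far apart. *Bmp1*, the C-propeptide protease, rose by 0.67 from a control mean of 11.01 (adjusted p = 0.0259), and *Pcolce*, which enhances that protease, fell by 0.91 from 10.64 (adjusted p = 0.0494). *Pcolce2*, of the same list, differed the other way, by 0.64 from 10.19 with groups apart, and did not pass (adjusted p = 0.257 from limma). Of the genes that passed, *Adamts14* did so whichever array was left out, *Bmp1* in 1 of 6 such fits and *Pcolce* in 0.

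Of 19 measured genes of hydroxylation, folding and export 1 fell and 18 did not pass (5.26% called, beside 2.96% of all genes). *P3h2*, a prolyl 3-hydroxylase that acts on type IV collagen, went from 8.61, 8.87 and 8.73 to 6.42, 6.21 and 7.26, so it fell by 2.11 (log2) with adjusted p = 0.0178 and a standard error of 0.27. Its other probe set did not move with it, at 5.91, 5.73 and 5.76 in control and 5.76, 5.81 and 5.73 in long-term EMT cells (log2 difference -0.03, adjusted p = 0.92 from limma), and over the mean of both probe sets the log2 difference was -1.07. With an array left out, the first passed in 2 of 6 fits. *Serpinh1*, the collagen chaperone, had a log2 difference of 0.31 and the prolyl 4-hydroxylase subunit genes *P4ha1* and *P4ha2* ones of -0.23 and 0.54, none of which passed. Of 5 genes of cross-linking 1 fell, *Loxl4* of the lysyl oxidases. It fell by 0.98 (adjusted p = 0.0454 from limma) on 1 probe set and had a log2 difference of -0.91 (adjusted p = 0.0889) on its other. *Tgm2* had a log2 difference of -1.01 (adjusted p = 0.0663 from limma) and did not pass. The lysyl oxidase gene *Loxl1* differed the other way, by 0.72, and did not pass either (adjusted p = 0.197 from limma). By value 2 of the 5 were above 0 and 3 below. Of 15 genes of fibril-associated proteins 1 rose, *Sparc*, a collagen-binding glycoprotein, by 0.65 (adjusted p = 0.0496 from limma). By value 8 of the 15 were above 0 and 7 below. *Prelp* and *Ogn* had larger log2 differences, -3.98 and -1.66, and did not pass (adjusted p = 0.0545 and 0.0553 from limma). Neither *Loxl4* nor *Sparc* passed once any array was removed.

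Of 12 measured genes of collagen receptors 2 rose and 1 fell (25% called, beside 2.96% of all genes). *Itga2*, the α subunit of a main collagen-binding integrin, rose by 2.07 (standard error 0.30, adjusted p = 0.0272), from 9.73, 8.82 and 8.55 to 11.23, 10.91 and 11.18. Anthrax toxin receptors bind collagens at the cell surface, and of their genes *Antxr2* rose by 1.40 and *Antxr1* fell by 1.67 (adjusted p = 0.00665 and 0.00414 from limma). Both passed whichever array was left out, while *Itga2* passed in 1 of those 6 fits. *Itgb1*, the β1 subunit that pairs with it, had a log2 difference of 0.51 with adjusted p = 0.033 from limma, under the fold of 1.5. The collagen-binding integrin genes *Itga1*, *Itga10* and *Itga11* and the discoidin domain receptor genes *Ddr1* and *Ddr2* did not pass, with log2 differences between -0.32 and 0.06. Of 7 genes of collagen breakdown 1 rose (14.3%, beside 2.96% of all genes). This was the gelatinase gene *Mmp9*, by 3.59 (standard error 0.57, adjusted p = 0.0354), from 10.01, 7.99 and 7.82 to 12.46, 12.10 and 12.02, and it passed only without control replicate 1, with a log2 difference of 4.29. The fibrillar collagenase gene *Mmp13* varied widely between control samples, at 11.45, 9.05 and 6.88, and did not pass.

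**Figure D4:**
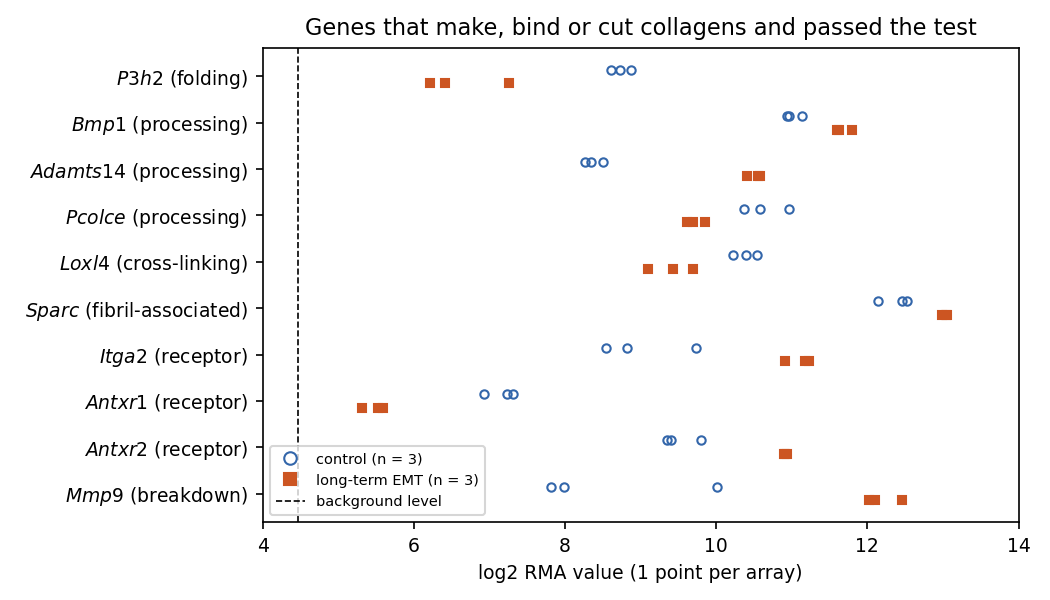
Log2 RMA values on each array of the 10 genes of collagen folding, processing, cross-linking, binding and breakdown that passed, with control arrays as open circles (n = 3), long-term EMT arrays as filled squares (n = 3) and the background level of 4.48 as a dashed line. *Adamts14*, *Bmp1*, *Sparc*, *Itga2*, *Antxr2* and *Mmp9* lie to the right and *P3h2*, *Pcolce*, *Loxl4* and *Antxr1* to the left of their control arrays, with no overlap.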

How the data were processed

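RNA of 3 control and 3 long-term EMT samples (150 ng each) was hybridized to 6 arrays. The authors processed the arrays in Affymetrix Expression Console by RMA, in a version not given in the sources used here, and deposited log2 values with 2 decimals, which were used as they are. RMA sets all arrays to 1 distribution, so shifts shared by most genes cannot be seen. Gene symbols came from GEO's platform annotation, in which 1881 probe sets have several symbols and 12457 have none.

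All 35556 probe sets were fitted with limma 3.58.1 in R 4.3.3 (lmFit, eBayes, no block). The fit was tested on simulated data. The number of arrays limits the precision. The members, classes, lists, motifs and tests were chosen with earlier results of these data known. Genes named are the members that passed, the 3 with the largest difference and the 2 with the highest level in each class, neighbouring pairs, and up to 4 genes per list that passed, and others are examples chosen after their values were seen. *Ppib*, *Fkbp10*, *Adamts2*, *Loxl3* and *Gp6* have no probe set of their own. Promoter windows were read with Python 3.11.15. Alternatives were other priors, tests, normalizations, filters, probe set choices, folds, a replicate block and leaving out arrays.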

Additional observations from a re-analysis of the deposited data

How the results depend on the processing

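Under a further quantile normalization, equal array medians, removal of dim probe sets, other probe set choices and no fold threshold, the same 3 collagens passed. With a trended and robust prior *Col5a3* did not pass, so that 0 collagens and 0 fibrillar genes were higher, and likewise above a fold of 2, where the trimming genes were 1 higher and 0 lower, and 0 cross-linking and 0 fibril-associated genes passed. By the methods' t-test at an unadjusted p of 0.05 or less, 3 collagens were higher (*Col1a1*, *Col5a3* and *Col16a1*; 2 fibrillar, 1 FACIT) and 2 lower, with 1 cross-linking gene higher and 2 lower and 2 fibril-associated genes lower, and after Benjamini-Hochberg adjustment 0 collagens passed in any class and, of the lists, 1 trimming gene was higher and 0 others passed. Samples of the same replicate number deviated together with r = 0.245, 0.0366 and 0.331. Those of different numbers gave r between -0.333 and 0.178, and not every sample correlated best with its own number. The deviations within a group depend on one another, so whether the samples were paired cannot be told from these values. With a replicate block 1 collagen was lower (*Col6a1*) and 1 higher (*Col16a1*, FACIT), with 0 fibrillar and 0 basement membrane genes, and among the lists trimming had 1 higher and 0 lower and fibril-associated genes 0. Cross-linking genes were 2 lower and fibril-associated genes 2 lower without dim probe sets, 0 cross-linking genes passed with the mean of all probe sets or a further quantile normalization, 0 fibril-associated genes with equal medians, and with no fold threshold 1 folding and export gene (*Sec24d*) and 3 receptor genes (*Itgb1* added) were higher. *Col3a1* turned to -0.0183 with equal medians and -0.00389 with the further quantile normalization.

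With an array left out, between 0 and 2 collagens were higher and between 0 and 2 lower, with 0 to 1 in each class where any passed. Folding and export had 0 to 1 higher and 0 to 1 lower, trimming 1 to 2 higher and 0 lower, cross-linking 0 lower, fibril-associated genes 0 to 1 higher and 0 to 1 lower, receptors 1 to 2 higher and 1 lower, and breakdown 0 to 1 higher. In such fits the log2 difference of *Col3a1* ranged from -0.04 to 0.065 (-0.035 without control replicate 2), that of *Col5a1* from -0.0717 to 0.128 and that of *Col4a6* from -0.168 to 0.015. Counting probe sets with 2 symbols, chosen after the data were seen, gave 2 collagens higher. In a window of 100 bases 3 collagen promoters held CAGACA and 2 held CACCTG. The causes were not tested. The planned comparison of protein sequences was not run. Signal near background limits what can be said of dim genes.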

Other observations

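The probe set annotated to both *Mir711* and *Col7a1*, where the microRNA gene lies within the collagen gene, was singled out after its values were seen. It gave 6.31, 6.10 and 6.11 in control and 7.61, 7.50 and 7.68 in long-term EMT cells, with a log2 difference of 1.42 and a standard error of 0.10 (limma, adjusted p = 0.00259), and which of the genes it reads was not tested. The probe set annotated to *Tcfl5* and *Col9a3* had a log2 difference of 0.11 (adjusted p = 0.83 from limma).

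The proteoglycan genes *Prelp* and *Dcn*, whose products bind collagen, were also chosen after their values were seen. *Prelp* gave 10.29, 8.49 and 7.16 in control and 4.89, 4.56 and 4.54 in long-term EMT cells, with groups apart and adjusted p = 0.0545 from limma. *Dcn* gave 7.68, 5.98 and 4.50 in control and 4.44, 4.33 and 4.11 in long-term EMT cells, below the background level in the last group, with adjusted p = 0.376.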
